A study of Homo sapiens with 15 samples.

Results

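The genes described here are the D cyclins CCND1, CCND2 and CCND3, the kinases they activate, CDK4 and CDK6, the inhibitors CDKN1B, CDKN1C, CDKN2C and CDKN2D, and RB1, the main substrate of the kinases. They were taken by symbol from the gene table, 10 of its 37787 genes, and 9 of the 10 had enough counts to be tested, with CCND2 below the filter on low counts. RNA was sequenced from HGrC1, a non-luteinized and immortalized line of human granulosa cells, in 15 libraries from 5 conditions with replicates A, B and C each. The control condition, Vectors, received the vectors alone. The condition FOXL2WT received SMAD3 with wild-type FOXL2, and FOXL2C134W received SMAD3 with the FOXL2 mutant that marks adult granulosa cell tumors. FOXL2WT + FOXO1 and FOXL2C134W + FOXO1 received the same plasmids plus FOXO1-3A, a FOXO1 form that stays active in the nucleus. All cells were at passage 14 and were kept for 24 h without serum after 4 h of lipofection. The line itself is a limit of the model: it is known to have been immortalized by transfer of genes for a mutant CDK4, cyclin D1 and telomerase, so the controls carry these too, and the estimated counts do not separate transferred copies from the cells' own genes.

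D cyclins are made in response to growth signals and bind CDK4 or CDK6. The active complexes phosphorylate the retinoblastoma protein RB1, which releases E2F factors and lets the cell pass from G1 into S phase. Inhibitors of the INK4 family, here CDKN2C (p18) and CDKN2D (p19), bind the kinases and keep the cyclins away. Inhibitors of the CIP/KIP family, here CDKN1B (p27) and CDKN1C (p57), bind cyclin-kinase complexes, and p27 is a well known target of FOXO factors. In granulosa cells cyclin D2 is the D cyclin classically tied to the response to FSH, and p27 to the exit from the cell cycle at luteinization.

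Library totals ran from 14962245 to 25339094 estimated counts, and replicates differed by more than counting noise. Nothing in the labels says that replicates came from separate cultures, so p-values measure the spread between these libraries. Of the granulosa cell markers, GATA4, WT1, FST and KITLG were present in all libraries (the lowest at 30.0 CPM, estimated counts scaled to library size), but FSHR, the receptor for FSH, was at 0 in all 15, and AMHR2, INHA and CYP19A1, the aromatase, had at most 7 counts in any library. AMH, NR5A1 and INHBA were low but present. LHCGR was at 0 and the immune marker PTPRC had at most 5 counts, but CD14, also an immune marker, had 12 to 38. The endothelial markers PECAM1 (10 to 53 counts), VWF (7 to 27 counts) and CDH5 (33 to 102 counts) were present at low levels. The epithelial keratin KRT7 stood between 1154 and 1976 CPM. It rose against Vectors in all 4 conditions with SMAD3 and FOXL2, by 0.37 to 0.48 on the log2 scale (edgeR adjusted p from 0.0010 to 0.016). By contrast EPCAM was at most 7.72 CPM and CDH1 had at most 12 counts. The part of KRT7-expressing cells in the results below was not tested. FOXL2 was at 561 ± 5.89 CPM (SD, n = 3) in FOXL2WT but 147 ± 27.0 CPM in FOXL2C134W, SMAD3 at 2768 ± 154 and 843 ± 37.4 CPM, and FOXO1 at 117 ± 14.5 CPM in FOXL2WT + FOXO1 but 43.2 ± 4.06 CPM in FOXL2C134W + FOXO1. These are RNA levels, and by immunoblot the authors report balanced protein of both FOXL2 forms and FOXO1. The mutation and these unequal RNA levels of the transfected genes cannot be told apart in any comparison of the mutant with the wild type. SMAD3 was lower with FOXO1, at 969 ± 10.8 CPM in FOXL2WT + FOXO1 and 392 ± 16.9 CPM in FOXL2C134W + FOXO1. FOXL2 stood at 384 and 152 CPM there. FOXO1 and these shifts in the other transfected genes cannot be told apart where FOXO1 was added.

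All called changes among these genes in the model of all 15 libraries were decreases. A gene was called where the edgeR quasi-likelihood test, adjusted by Benjamini-Hochberg over 13868 genes, gave p under 0.05. Against Vectors, 5 of the 9 tested genes fell in FOXL2C134W (CCND3, CDK4, CDKN1B, CDKN2C and CDKN2D), where 14.7% of all tested genes were called and 7.24% were lower. In FOXL2WT 2 of 9 fell (CDK4 and CDKN2C, background 6.07%, lower 3.61%), in FOXL2C134W + FOXO1 4 of 9 fell (CDK4, CDKN1B, CDKN2C and CDKN2D, background 9.33%, lower 5.16%), and in FOXL2WT + FOXO1 0 of 9 passed (background 3.78%). These 4 comparisons share the Vectors libraries. FOXL2C134W was lower than FOXL2WT in 3 of 9 genes, the inhibitors CDKN1B, CDKN1C and CDKN2D (background 11.2%, lower 4.12%).

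No gene of the set passed for the addition of FOXO1, either to FOXL2WT (background 0.0505%) or to FOXL2C134W (background 0.714%). Likewise 0 of 9 passed between FOXL2C134W + FOXO1 and FOXL2WT + FOXO1 (background 0.144%), and 0 of 9 for the interaction, in which the FOXO1 effect in the mutant is compared with that in the wild type (background 1.38%). At an unadjusted p under 0.05, edgeR gave 4 of 9 for FOXL2WT + FOXO1 against Vectors, 2 and 0 for the addition of FOXO1 to FOXL2WT and to FOXL2C134W, 4 for the mutant against the wild type with FOXO1, and 4 for the interaction. Over all 13868 tested genes the same cut gave 2400, 1266, 1557, 1878 and 1736 genes in this order. DESeq2 called 0, 0, 0, 1 and 1 gene of the set in the same order, the last 2 being CDKN1B and CCND1. Over all genes DESeq2 called 660, 62, 223, 95 and 365. In the test for any difference among the 5 conditions, 5 of 9 passed (CDK4, CDKN1B, CDKN1C, CDKN2C and CDKN2D, background 16.4%). Over the 9 genes the median log2 fold change was -0.22 for FOXL2C134W against Vectors and -0.05 for FOXL2WT against Vectors, beside 0.004 and 0.003 over all genes tested.

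**Figure D1:**
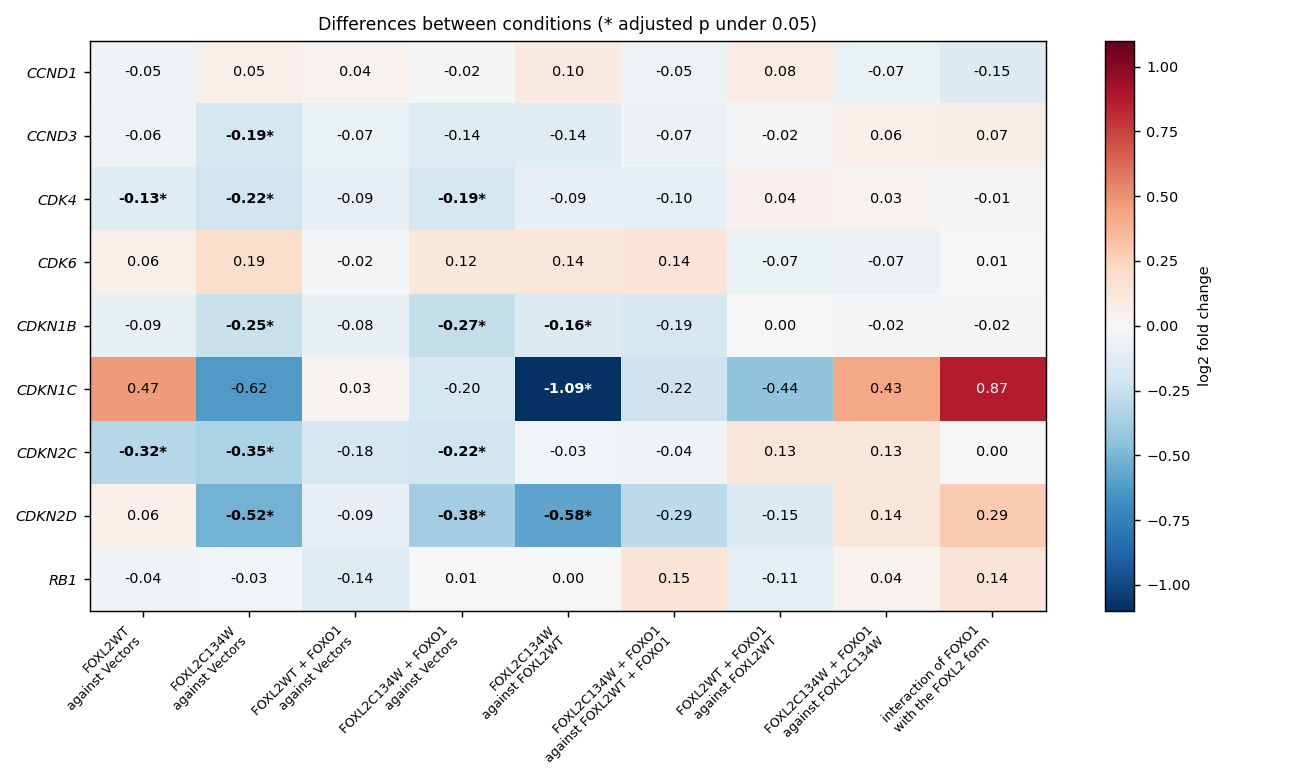
Log2 fold changes of the 9 tested genes (rows) in 8 comparisons and the interaction (columns), blue for lower and red for higher, with an asterisk where the adjusted p of edgeR was under 0.05. All 14 asterisks stand on negative values, and there are none in the last 4 columns.

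The levels of different genes were compared per transcript length, in TPM, the share of transcripts after division by length. CDK4 and CCND1 stood far above the rest. The median over the 15 libraries was 24466 TPM for CDK4 and 23944 TPM for CCND1, and the ranges of these 2 overlapped, from 23640.2 to 29003 and from 22609 to 25892 TPM. CDKN1B followed with a median of 155 TPM, CCND3 with 89.4 and RB1 with 61.3 TPM. CDKN2C lay at 39.2, CDK6 at 18.1, CDKN2D at 13.02 and CDKN1C at 1.31 TPM. Of the neighbours in this order, CCND3 and RB1, RB1 and CDKN2C, and CDK6 and CDKN2D also had overlapping ranges over the libraries. CCND2 was at most 0.0463 TPM.

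**Figure D2:**
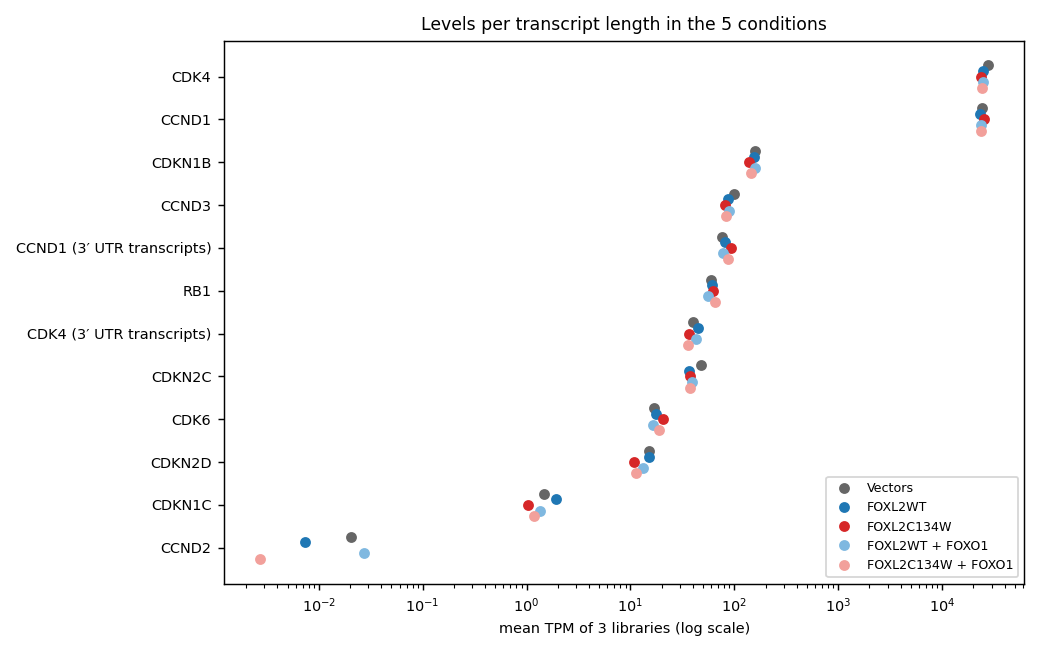
Mean TPM of 3 libraries per condition (points, log scale) for each gene over all its transcripts and, for CCND1 and CDK4, over the transcripts that hold the 3′ UTR. CCND2 had no reads in FOXL2C134W and has no point there. The medians over 15 libraries, 24466 and 23944 TPM for CDK4 and CCND1, become 39.7 and 80.9 TPM, among the other genes, when only 3′ UTR transcripts are counted.

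In read counts, CDK4 ranked 1 and CCND1 ranked 4 of all 13868 tested genes by mean CPM, and they took 0.923% and 0.690% of all counts. Salmon, which estimated the counts, assigned few of these reads to transcripts with the 3′ UTR. It divides reads between transcripts that share exons, so these shares do not show how long the RNAs were. CCND1 is on chromosome 11 from 69641156 to 69654474 (plus strand, GRCh38), and CCND1-201, the only one of its 6 annotated transcripts with the 3195-base 3′ UTR, received 4.13% of its reads, between 3.70% and 4.64% in every library. Another 95.9% went to 4 transcripts of 430 to 920 bases with at most 128 bases of the 3′ UTR, all of them annotated as retained introns with 309 to 574 bases of the coding sequence. CDK4 is on chromosome 12 from 57747727 to 57756013 (minus strand), and its 2 transcripts with the 801-base 3′ UTR held only 0.437% to 0.639% of its reads. Here 99.5% went to 5 transcripts of 447 to 952 bases with at most 102 bases of the 3′ UTR. By contrast CDKN1B-201, with the whole 3′ UTR of its gene, took 98.4% of the CDKN1B reads, CDK6-201 took 99.1% for CDK6 and RB1-201 took 97.7% for RB1. TERT, the catalytic subunit of telomerase, was present in all libraries, with 471 to 914 counts (25.2 to 36.2 CPM), and was chosen after its values were seen. From which copy the CCND1 and CDK4 reads assigned to the short transcripts came was not tested.

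Over all its reads, CCND1 was not called in any comparison. It stood at 6864 ± 23.4 CPM in Vectors, 6642 ± 187 in FOXL2WT, 7125 ± 184 in FOXL2C134W, 7035 ± 167 in FOXL2WT + FOXO1 and 6784 ± 272 CPM in FOXL2C134W + FOXO1 (SD, n = 3 each). The 3 FOXL2C134W libraries, at 7318, 6953 and 7103 CPM, were all above the 3 FOXL2WT libraries, at 6695, 6435 and 6797 CPM. The log2 difference was 0.10 (SE 0.034, edgeR adjusted p = 0.064). This difference was past the threshold with DESeq2 (adjusted p = 0.021) and with the size factors of DESeq2 in edgeR (adjusted p = 0.047), and with a gene length offset it was 0.19 (edgeR adjusted p = 0.0054). With FOXO1 the sign of the mutant against the wild type was negative, -0.05, and the interaction of -0.15 was not called by edgeR (SE 0.048, adjusted p = 0.14) but was by DESeq2 (adjusted p = 0.047).

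The reads on CCND1-201, which holds the 3′ UTR, gave other differences than the gene total. They stood at 254.9, 268.6 and 264.1 CPM in Vectors, 290.5, 277.9 and 274.9 CPM in FOXL2WT, and 315.8, 322.3 and 292.6 CPM in FOXL2C134W. All 3 FOXL2C134W libraries lay above all libraries of FOXL2WT and of Vectors. With FOXO1 they gave 273.6, 269.9 and 278.2 CPM in FOXL2WT + FOXO1 and 294.2, 295.4 and 291.9 CPM in FOXL2C134W + FOXO1. Counted this way, an alternative chosen after seeing the data, CCND1 rose in FOXL2C134W against Vectors by 0.24 (SE 0.039, edgeR adjusted p = 0.00042), against FOXL2WT by 0.14 (SE 0.039, edgeR adjusted p = 0.025), and in FOXL2C134W + FOXO1 against Vectors by 0.16 (SE 0.039, edgeR adjusted p = 0.013), where the gene total had the opposite sign, -0.02. With FOXO1 the mutant against the wild type was 0.10 in this measure (SE 0.040, edgeR adjusted p = 0.28), opposite in sign to the gene total, and the interaction was -0.04 (SE 0.056, edgeR adjusted p = 0.84). The 2 measures are from the same libraries, and salmon divides reads between transcripts that share exons.

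**Figure D3:**
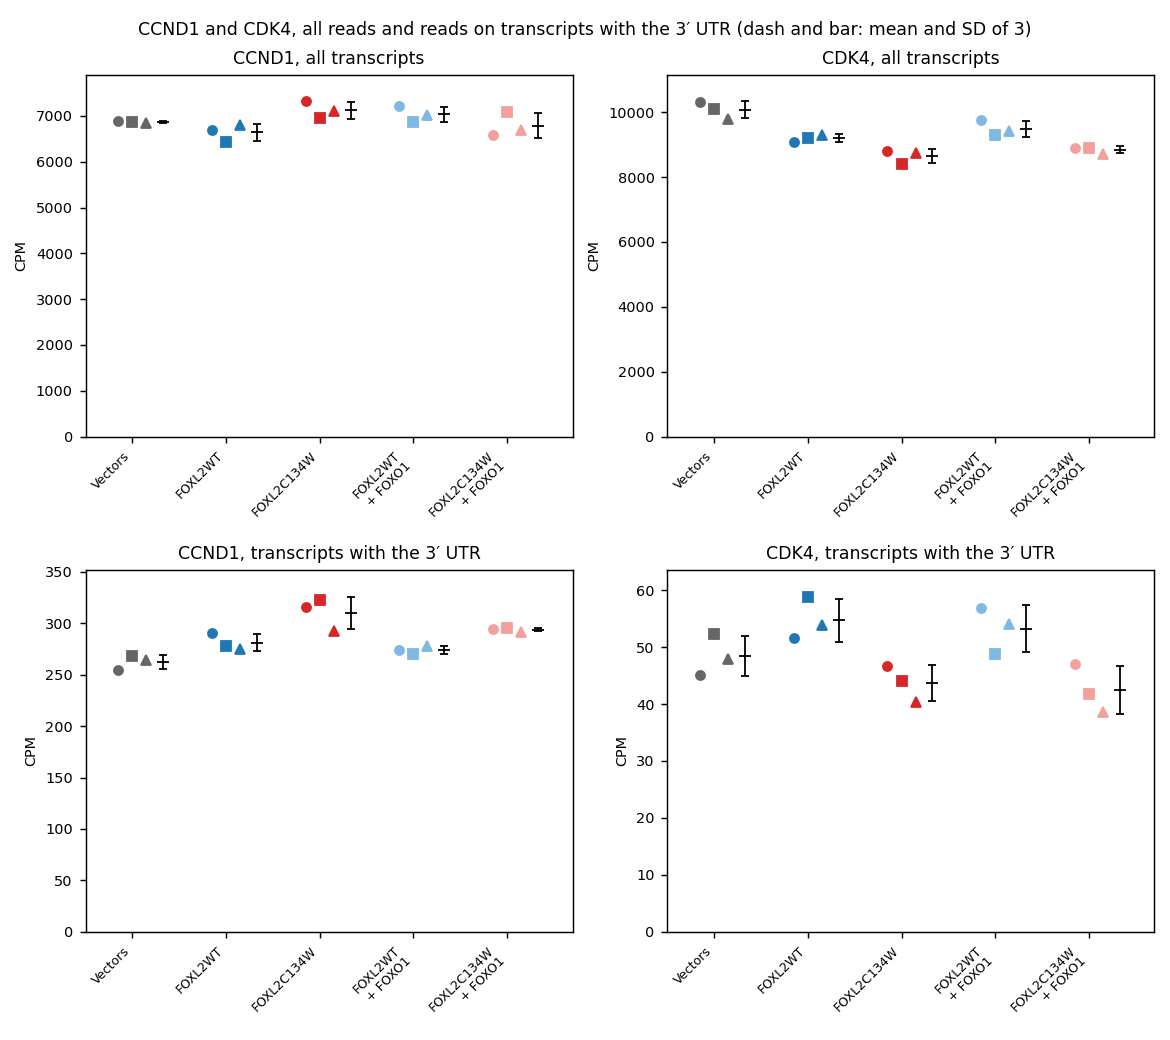
CPM of CCND1 and CDK4 in each library from all transcripts (upper panels) and from transcripts with the 3′ UTR (lower panels), with dash and bar for the mean and SD of 3 replicates. CCND1 has its highest mean in FOXL2C134W in both panels. It is 7125 ± 184 against 6864 ± 23.4 CPM in Vectors in the upper panel, and 310 ± 15.6 against 262 ± 6.98 CPM in the lower one. CDK4 in FOXL2WT is below Vectors in the upper panel and above it in the lower one (54.7 ± 3.76 against 48.4 ± 3.58 CPM).

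CCND1 made up 99.6% to 99.7% of the summed TPM of the 3 D cyclins in every condition. The share did not pass for FOXL2C134W against FOXL2WT (0.0473 percentage points, two-sided exact permutation p = 0.50, adjusted over 3 tests 0.75), nor for FOXO1 in FOXL2WT (exact permutation p = 1.0) or in FOXL2C134W (exact permutation p = 0.50), and with 3 libraries against 3 the smallest p is 0.1. Restricted to transcripts annotated as protein coding, the share was 51.9% ± 1.89 in Vectors, 54.5% ± 0.988 in FOXL2WT and 58.7% ± 1.27 in FOXL2C134W (SD, n = 3 each). FOXL2C134W then stood 4.18 percentage points above FOXL2WT and changed by -2.35 points with FOXO1, each at the smallest p of the exact permutation test, 0.1 (adjusted 0.15). The remainder was CCND3, since CCND2 was nearly absent.

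CCND2, on chromosome 12 from 4269771 to 4305353, encodes the D cyclin tied to FSH. Its counts were 1, 5 and 1 in Vectors, 1, 1 and 0 in FOXL2WT, 0 in all 3 FOXL2C134W libraries, 4, 3 and 1 in FOXL2WT + FOXO1, and 0, 0 and 1 in FOXL2C134W + FOXO1. The sums over 3 libraries were 7, 2, 0, 8 and 1 in this order, and a count of 0 allows up to 3, for counting error only. CCND2 entered the fit only with the filter of 1 count in any library, where none of its comparisons passed. The smallest p was that of FOXL2C134W against Vectors (edgeR unadjusted p = 0.016, adjusted p = 0.12).

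CCND3, on chromosome 6 from 41934934 to 42050357, fell in FOXL2C134W. It was at 101.0, 101.2 and 109.7 CPM in Vectors and at 97.1, 89.9 and 85.8 CPM in FOXL2C134W, with no overlap. The log2 fold change was -0.19 (SE 0.053, edgeR adjusted p = 0.019). The call was lost without Vectors replicate C, FOXL2C134W replicate B or FOXL2C134W replicate C (edgeR adjusted p = 0.13, 0.080 and 0.097) and in DESeq2 with transcript length offsets (adjusted p = 0.48), where salmon's division of CCND3 among its transcripts enters the estimate. In the other conditions CCND3 stood between 90.6 and 106 CPM. Against FOXL2WT, at 100.1 ± 1.01 CPM, the mutant's difference was -0.14 (edgeR adjusted p = 0.11).

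**Figure D4:**
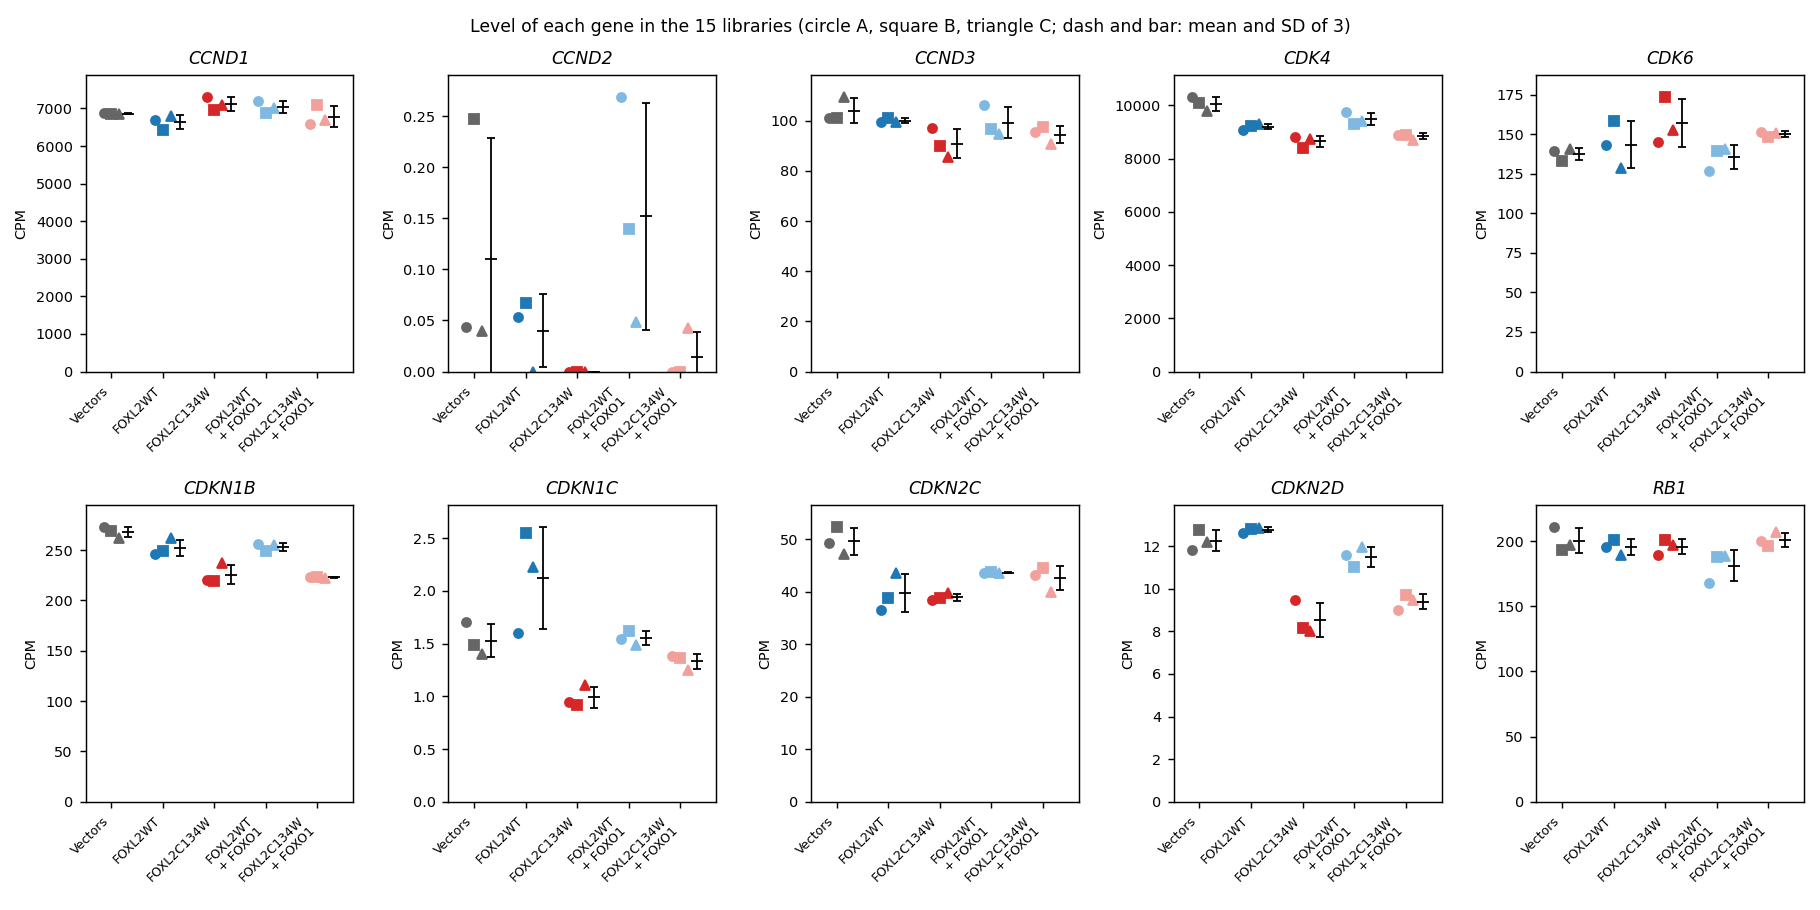
CPM of the 10 genes in each of the 15 libraries by condition, on axes that start at 0, with the replicate letter as the symbol and dash and bar for the mean and SD of 3. The libraries of the 2 mutant conditions sit lowest for CDKN1B (219.6 to 237 CPM) and CDKN2D (8.02 to 9.71 CPM), Vectors sits highest for CDK4 and CDKN2C, and RB1 overlaps in most conditions.

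CDK4, the kinase partner of the D cyclins, was highest in Vectors in every library. It was at 10325, 10088 and 9799.9 CPM in Vectors, 9092, 9212 and 9309 CPM in FOXL2WT, and 8808, 8406 and 8742 CPM in FOXL2C134W. With FOXO1 it was at 9759.9, 9295 and 9412 CPM in FOXL2WT + FOXO1 and at 8899.8, 8901 and 8717 CPM in FOXL2C134W + FOXO1. No library of a condition with SMAD3 and FOXL2 reached the lowest of Vectors, and the libraries of both mutant conditions lay below those of both wild-type conditions. CDK4 fell against Vectors by 0.22 on the log2 scale in FOXL2C134W (SE 0.030, edgeR adjusted p = 9.3e-05), by 0.19 in FOXL2C134W + FOXO1 (SE 0.030, edgeR adjusted p = 0.00055) and by 0.13 in FOXL2WT (SE 0.030, edgeR adjusted p = 0.016). The last call was lost without Vectors replicate A, FOXL2WT replicate A or FOXL2WT replicate B (edgeR adjusted p = 0.095, 0.081 and 0.058).

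The CDK4 reads on transcripts with the 3′ UTR, 845.9 to 1258.4 per library, had another order. They gave 45.2, 52.3 and 47.9 CPM in Vectors, 51.5, 58.9 and 53.8 CPM in FOXL2WT, and 46.6, 44.03 and 40.4 CPM in FOXL2C134W. Here FOXL2WT was the highest of the 3, and FOXL2C134W overlapped Vectors. None of the comparisons with Vectors passed in this measure, and FOXL2WT against Vectors had a positive log2 difference, 0.17 (SE 0.080, edgeR adjusted p = 0.22). FOXL2C134W was lower than FOXL2WT by a log2 difference of -0.32 (SE 0.080, edgeR adjusted p = 0.014), which over all CDK4 reads was -0.09 and not called (edgeR adjusted p = 0.068). CDK4 overlaps TSPAN31 and MARCHF9 on the opposite strand, and CCND1 overlaps LTO1. The libraries were stranded, but the strand setting of the quantification is not given in the sources used here.

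CDK6, the other kinase of the D cyclins (chromosome 7, 92604921 to 92836573), was not called in any comparison. It stood at 138 ± 3.92 CPM in Vectors, 144 ± 15.1 in FOXL2WT, 157 ± 14.96 in FOXL2C134W, 136 ± 7.69 in FOXL2WT + FOXO1 and 150.1 ± 1.69 CPM in FOXL2C134W + FOXO1 (SD, n = 3 each). All FOXL2C134W libraries, at 145, 174 and 153 CPM, were above the highest of Vectors, 141 CPM. The log2 difference was 0.19 (SE 0.068, edgeR adjusted p = 0.067), of opposite sign to that of CDK4. DESeq2 placed it past the threshold (adjusted p = 0.039), as did both other count filters (edgeR adjusted p = 0.0021 and 0.049). With a gene length offset it was 0.04 (edgeR adjusted p = 0.61).

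CDKN1B encodes p27, the CIP/KIP inhibitor that binds cyclin-kinase complexes, and lies on chromosome 12 from 12685498 to 12722369 (plus strand). It was lower in both mutant conditions. Its levels were 272, 269 and 262 CPM in Vectors, 246, 249.4 and 261 CPM in FOXL2WT, and 220.3, 219.6 and 237 CPM in FOXL2C134W. With FOXO1 they were 256, 248.7 and 255 CPM in FOXL2WT + FOXO1 and 224, 223 and 222 CPM in FOXL2C134W + FOXO1. The 6 mutant libraries were all below the 6 wild-type libraries, which were in turn below Vectors. The log2 fold change of FOXL2C134W was -0.25 against Vectors (SE 0.038, edgeR adjusted p = 0.00021) and -0.16 against FOXL2WT (SE 0.038, edgeR adjusted p = 0.0092). That of FOXL2C134W + FOXO1 was -0.27 against Vectors (SE 0.038, edgeR adjusted p = 0.00017) and -0.19 against FOXL2WT + FOXO1 (SE 0.038, edgeR adjusted p = 0.055).

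CDKN1B did not change detectably where FOXO1 was added in either background, although p27 is a known FOXO target. The log2 difference was 0.004 in FOXL2WT (95% confidence interval -0.08 to 0.08) and -0.02 in FOXL2C134W (-0.10 to 0.06). The interaction was -0.02 (95% interval -0.14 to 0.09). The call against FOXL2WT was lost without FOXL2WT replicate C or FOXL2C134W replicate B (edgeR adjusted p = 0.065 and 0.071), and all 3 CDKN1B calls were lost in DESeq2 with transcript length offsets (adjusted p from 0.19 to 0.68). The direction was kept, but the fold change of FOXL2C134W + FOXO1 against Vectors was then -0.10 in place of -0.27.

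CDKN1C, which encodes p57, the other CIP/KIP inhibitor here (chromosome 11, 2883213 to 2885775, minus strand), was expressed at a low level, with 22 to 52 counts per library. It was at 1.60, 2.55 and 2.22 CPM in FOXL2WT and at 0.950, 0.919 and 1.11 CPM in FOXL2C134W. The groups did not overlap, and the log2 fold change was -1.09 (SE 0.22, edgeR adjusted p = 0.0034), the largest in size of any called gene of the set. Vectors lay between them at 1.70, 1.48 and 1.40 CPM, and neither FOXL2WT (0.47, edgeR adjusted p = 0.21) nor FOXL2C134W (-0.62, edgeR adjusted p = 0.069) passed against it. With FOXO1 the levels were 1.55, 1.62 and 1.49 CPM in the wild-type and 1.38, 1.36 and 1.247 CPM in the mutant background. The 2 conditions were closer than without FOXO1, but the interaction of 0.87 (SE 0.31, 95% interval 0.21 to 1.52) was not called (edgeR adjusted p = 0.22). DESeq2 gave CDKN1C no adjusted p for FOXL2C134W against FOXL2WT.

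CDKN2C encodes p18, an INK4 inhibitor of CDK4 and CDK6, and lies on chromosome 1 from 50960745 to 50974634 (plus strand). It was highest in Vectors and fell with both FOXL2 forms. Its levels were 49.3, 52.4 and 47.3 CPM in Vectors, 36.6, 38.9 and 43.7 CPM in FOXL2WT, and 38.4, 38.8 and 39.8 CPM in FOXL2C134W. The log2 fold change was -0.32 in FOXL2WT (SE 0.062, edgeR adjusted p = 0.0048) and -0.35 in FOXL2C134W (SE 0.061, edgeR adjusted p = 0.00085). Between the FOXL2 forms the difference was -0.03, with a 95% interval from -0.16 to 0.10. With FOXO1 CDKN2C stood at 43.7, 43.8 and 43.5 CPM in FOXL2WT + FOXO1 and at 43.2, 44.6 and 40.0 CPM in FOXL2C134W + FOXO1. The means of 43.7 and 42.6 CPM lay between those without FOXO1, 39.7 and 39.0 CPM, and that of Vectors, 49.7 CPM. The differences for adding FOXO1, 0.13 in each background, were not called (edgeR adjusted p = 0.55 and 0.46). The fall of FOXL2C134W + FOXO1 against Vectors, -0.22 (edgeR adjusted p = 0.029), was lost without Vectors replicate A or B or without FOXL2C134W + FOXO1 replicate A or C (edgeR adjusted p from 0.063 to 0.14).

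CDKN2D encodes p19, the other INK4 inhibitor in the set (chromosome 19, 10566460 to 10569059, minus strand), and it fell with the mutant. Its levels were 11.8, 12.8 and 12.2 CPM in Vectors, 12.6, 12.8 and 12.9 CPM in FOXL2WT, and 9.46, 8.15 and 8.02 CPM in FOXL2C134W. FOXL2WT overlapped Vectors, and FOXL2C134W lay below both. With FOXO1 its levels were 11.6, 11.0 and 11.9 CPM in FOXL2WT + FOXO1 and 9.001, 9.71 and 9.46 CPM in FOXL2C134W + FOXO1. The log2 fold change of FOXL2C134W was -0.52 against Vectors (SE 0.080, edgeR adjusted p = 0.00026) and -0.58 against FOXL2WT (SE 0.081, edgeR adjusted p = 0.00021), a level of 0.670 times that of FOXL2WT. FOXL2C134W + FOXO1 fell against Vectors by 0.38 (SE 0.080, edgeR adjusted p = 0.0045). With FOXO1 the difference between mutant and wild type was -0.29 (SE 0.082, edgeR adjusted p = 0.19), and the interaction of 0.29 was not called (SE 0.12, edgeR adjusted p = 0.29). All 3 calls of CDKN2D were kept when any 1 library was left out.

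**Figure D5:**
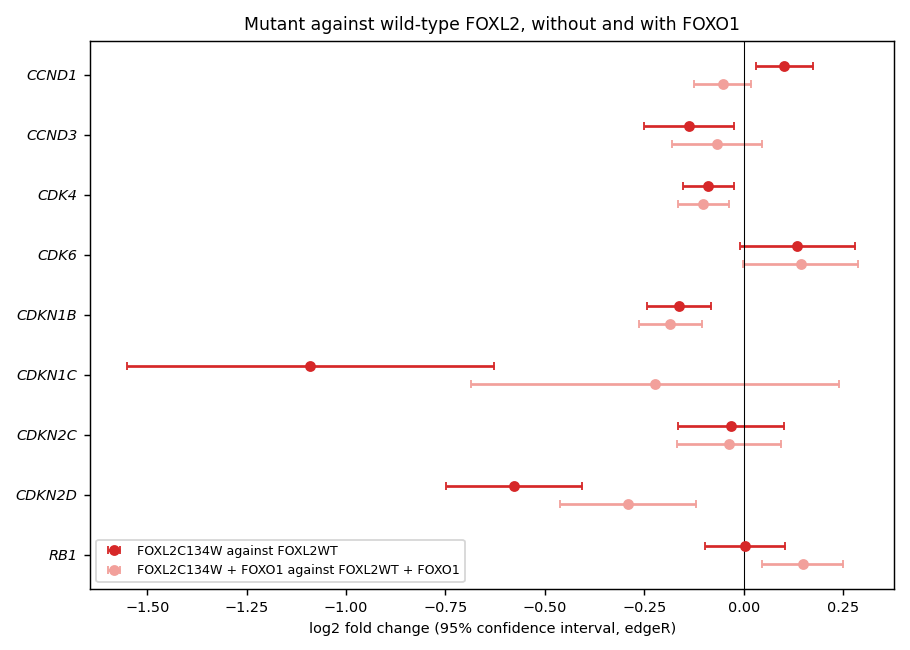
Log2 fold change of the mutant against the wild type without FOXO1 (dark red) and with FOXO1 (light red), with 95% confidence intervals from edgeR. CDKN2D moves from -0.58 to -0.29 and CDKN1C from -1.09 to -0.22, in both cases with overlapping intervals, and CDKN1B (-0.16 and -0.19) and CDKN2C (-0.03 and -0.04) have similar values.

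The inhibitors that fell are shown with the sequence before the start of their transcript with the most reads. Both transfected families, forkhead and SMAD factors, bind DNA. For CDKN2C this transcript was CDKN2C-203, while CDKN2C-202 was higher per length (mean 21.7 against 17.4 TPM). The sequences are from the RefSeq promoter table (GRCh38.p14), 5′ to 3′ on the strand of the gene, and end at the base before the start. They are chr12:12717118-12717367 (plus strand) for CDKN1B, chr1:50968456-50968705 (plus strand) for CDKN2C and chr19:10569060-10569229 (minus strand) for CDKN2D.
CDKN1B: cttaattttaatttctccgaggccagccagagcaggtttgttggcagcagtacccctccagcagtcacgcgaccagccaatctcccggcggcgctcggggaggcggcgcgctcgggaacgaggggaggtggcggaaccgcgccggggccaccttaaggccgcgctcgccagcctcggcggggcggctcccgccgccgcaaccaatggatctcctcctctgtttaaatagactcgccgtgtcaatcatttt
CDKN2C: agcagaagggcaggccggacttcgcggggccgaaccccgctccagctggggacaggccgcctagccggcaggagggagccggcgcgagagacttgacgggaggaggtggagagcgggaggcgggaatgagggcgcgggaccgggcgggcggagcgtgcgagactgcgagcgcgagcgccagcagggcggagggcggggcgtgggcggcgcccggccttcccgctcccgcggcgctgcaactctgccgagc
CDKN2D: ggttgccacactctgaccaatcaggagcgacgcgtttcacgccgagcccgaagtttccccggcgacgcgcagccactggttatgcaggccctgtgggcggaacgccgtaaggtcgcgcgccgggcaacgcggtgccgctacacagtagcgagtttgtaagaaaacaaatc
No letter is in capitals because none of the motifs searched on both strands was found in them. These were GTAAACA for forkhead factors, GTCTAGAC (the SMAD palindrome) and CAGACA (the SMAD box) for SMAD factors, and TTTCCCGC and TTTGGCGC for E2F, and no motif contains another. In the 35116 promoter windows of 300 bases in the table, 250 before and 50 after a start, they occur in 3.42%, 0.202%, 16.9%, 1.63% and 0.652%. The table had 12 windows for 7 of the 10 genes, and CCND1, CCND2 and CDKN1C were not matched. Of the 12, 2 held a match. An upstream start of CCND3 had GTAAACA across the start itself, 106880 bases from the start of the leading CCND3 transcript, and a downstream start of CDKN2C had CAGACA on the reverse strand, 1539 bases from the leading start. A match is a description of letters, and its absence says only that they are not in this window.

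RB1, the pocket protein that the kinases phosphorylate (chromosome 13, 48303744 to 48599436), did not pass in any comparison. It stood at 200.1 ± 9.56 CPM in Vectors, 195 ± 5.94 in FOXL2WT, 196 ± 5.84 in FOXL2C134W, 181 ± 11.9 in FOXL2WT + FOXO1 and 201 ± 5.33 CPM in FOXL2C134W + FOXO1 (SD, n = 3 each). The lowest library was FOXL2WT + FOXO1 replicate A, at 168 CPM. For FOXL2C134W against FOXL2WT the log2 difference was 0.004, with a 95% interval from -0.10 to 0.11. The largest difference was 0.15, for FOXL2C134W + FOXO1 against FOXL2WT + FOXO1 (SE 0.048, edgeR adjusted p = 0.22).

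Other genes of the G1/S machinery moved little. In a list of 30 such genes, all tested, edgeR called 0 for FOXL2WT against Vectors, where 6.07% of all tested genes were called. At an unadjusted p under 0.05 edgeR gave 7 of 30 there, beside 2878 of all 13868, and DESeq2 called 0 of 30. For FOXL2C134W against Vectors (14.7% of all genes called) 1 passed, CCNA2, the cyclin of S phase and G2, at -0.16 (edgeR adjusted p = 0.014). Between FOXL2C134W and FOXL2WT 3 of 30 passed, a share near the 11.2% of all tested genes. RBL1, the p107 relative of RB1, rose by 0.20 and TFDP2, a dimerization partner of E2F, by 0.23, while E2F5, a repressive E2F, fell by 0.25 on the log2 scale (edgeR adjusted p = 0.048, 0.026 and 0.048). DESeq2 also called 3, RBL1 and TFDP2 with CKS1B, which is outside the naming rule, and did not call E2F5. For every comparison with a FOXO1 condition and for the interaction edgeR called 0 of 30, beside 0.0505% to 9.33% of all genes. At an unadjusted p under 0.05 these gave 0 to 8 of 30, beside 1266 to 3281 of all 13868 genes. DESeq2 called at most 1 of 30 (CCNH in FOXL2WT + FOXO1 and CUL1 in FOXL2C134W + FOXO1, against Vectors, both outside the naming rule). The median log2 fold change over the list lay between -0.003 and 0.055 in all 8 comparisons.

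Targets of E2F that act in S phase had calls in both directions. Of 16 such genes, all tested, 2 fell in FOXL2WT against Vectors (6.07% of all genes called), among them TYMS, the thymidylate synthase (-0.15, edgeR adjusted p = 0.020). In FOXL2C134W against Vectors (14.7% of all genes called) 3 fell, among them PCNA, the sliding clamp of DNA polymerase (-0.16), and TYMS (-0.15), and 1 rose, UHRF1, which maintains DNA methylation (0.19, edgeR adjusted p = 0.028). Between FOXL2C134W and FOXL2WT 2 of 16 passed, a share near the 11.2% of all tested genes, and both rose, UHRF1 (0.33, edgeR adjusted p = 0.00093) and the licensing factor CDT1 (0.23, edgeR adjusted p = 0.040). FOXL2C134W + FOXO1 differed from Vectors in 3 of 16 (9.33% of all genes called), with MCM6 and CDC6 higher and PCNA lower, by 0.14 each. edgeR called 0 of 16 for FOXL2WT + FOXO1 against Vectors, for the mutant against the wild type with FOXO1, for the addition of FOXO1 to either form, and for the interaction. Of all genes, 0.0505% to 3.78% were called in these. At an unadjusted p under 0.05 they gave 1 to 4 of 16, beside 1266 to 2400 of all 13868 genes, and DESeq2 called 0 of 16.

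Mitotic genes fell in FOXL2WT and moved in both directions in FOXL2C134W. Of 10 mitotic genes, 7 fell in FOXL2WT against Vectors (6.07% of all genes called), led by MKI67, the proliferation marker Ki-67 (-0.90, edgeR adjusted p = 0.0033), CENPF, a kinetochore protein (-0.76, edgeR adjusted p = 0.024), and TOP2A, topoisomerase II (-0.34, edgeR adjusted p = 0.0092). In FOXL2C134W against Vectors (14.7%) 4 fell, among them CDK1 (-0.25), CCNB2 (-0.24) and CCNB1 (-0.20), and MKI67 rose by 0.67 (edgeR adjusted p = 0.0049). Between FOXL2C134W and FOXL2WT (11.2%) 3 rose, MKI67 by 1.57 (edgeR adjusted p = 1.3e-05), CENPF by 0.98 (edgeR adjusted p = 0.0025) and TOP2A by 0.24 (edgeR adjusted p = 0.040). MKI67 was at 17.5, 19.3 and 18.7 CPM in FOXL2WT and at 39.9, 63.9 and 60.6 CPM in FOXL2C134W. With FOXO1 it was at 29.4, 35.1 and 31.9 CPM in FOXL2C134W + FOXO1, lower by 0.77 than without (edgeR adjusted p = 0.022), the only mitotic gene that passed for FOXO1. FOXL2WT + FOXO1 differed from Vectors in CDK1 (-0.17, edgeR adjusted p = 0.031), where 3.78% of all genes were called. FOXL2C134W + FOXO1 differed from Vectors in CDK1 and CCNB2 (-0.16 and -0.15), beside 9.33% of all genes. In bulk RNA, fewer dividing cells and less RNA per cell cannot be told apart.

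Among the tested genes of the set, the levels of CDK4 and CDKN1B followed each other most closely over the 15 libraries (Pearson r = 0.91 of log2-CPM), and CDKN2D followed CDKN1B (r = 0.82) and CDKN1C (r = 0.79). CDK6 ran against CDK4 (r = -0.72). CCND1 was close to unrelated to CDK4 (r = -0.02). These values describe 15 libraries from 5 conditions that share condition effects and library scaling. Of all 13867 other tested genes, the pattern of CDK4 was most like those of GSN, BAMBI and SARAF (r = 0.96, 0.96 and 0.95) and that of CDKN1B most like PNRC1, ADM and CXCL8 (r = 0.95, 0.94 and 0.94). CDKN2D was most like TGIF1, GOLGA7 and GLUL (r = 0.95, 0.95 and 0.94), CDKN2C like SH3BGRL, TM4SF1 and LRRC17 (r = 0.93, 0.91 and 0.91), and CDKN1C like SYT11 and SDC2 (r = 0.89 and 0.87).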

How the data were processed

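RNA of HGrC1 cells was measured in 15 libraries of 75-bp single-end reads from stranded mRNA. The authors quantified transcripts with Salmon 1.1.0 on hg38 and deposited a table of estimated counts per gene, rounded and not normalized. They also deposited, per library, TPM values and estimated reads of 227063 transcripts. Groups and replicate letters were taken from the labels, and 0 sample columns were left unmapped. Genes were filtered with filterByExpr (13868 of 37787 kept, 15042 at 0 in all libraries), scaled with TMM and fitted over all 15 libraries with the quasi-likelihood test of edgeR 4.0.16 (R 4.3.3, limma 3.58.1), with Benjamini-Hochberg adjustment over all tested genes and a threshold of 0.05. Patterns used log2-CPM with a prior count of 2. Shares of TPM were compared with two-sided exact permutation tests (scipy 1.17.1). Transcripts were joined to GENCODE 44, while the authors' release is not given in the sources used here, and transcripts with the 3′ UTR are those with at least 90% of the 3′ UTR of the reference transcript. Replicate letters did not pair the libraries (correlation of deviations from -0.164 to 0.124).

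The fit was tested on simulated data. Alternatives were DESeq2 1.42.0, DESeq2 with transcript length offsets, its size factors, filters of 1 count in any or 10 counts in every library, only the groups compared, a replicate block and leaving out each library; offsets for GC content and for gene length (lowess, span 0.3) and the 3′ UTR transcripts of CCND1 and CDK4 were chosen after the data had been seen. The genes and lists were chosen with earlier results of these data known. All 10 genes are named, and from the lists of 30 G1/S, 16 S-phase and 10 mitotic genes up to 3 called genes with the largest and 3 with the smallest log2 fold change per comparison. For likeness, up to 3 genes per member called for any difference are named. Some genes that these rules select are not reported here. Totals of 14962245 to 25339094 counts set the depth. The 95% intervals come from the edgeR fit and include the spread between libraries, whereas the limit of 3 counts for a count of 0 covers counting error only.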

Additional observations from a re-analysis of the deposited data

Results flagged for a closer look

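The effect of FOXO1 on MKI67 differed between the FOXL2 forms by a test of the difference itself. The interaction was -1.39 on the log2 scale (SE 0.23, edgeR adjusted p = 0.0067), and DESeq2 also called it. The other alternatives, among them leaving out each library, were not examined for MKI67. Over all genes, the number called by edgeR for the interaction ranged from 45 to 423 when a library was left out. MKI67 itself varied from 39.9 to 63.9 CPM over the FOXL2C134W libraries. In FOXL2C134W, FOXO1 came with a change of -0.77 (edgeR adjusted p = 0.022), and in FOXL2WT MKI67 stood at 18.5 ± 0.919 CPM without and 28.2 ± 5.62 CPM with FOXO1 (SD, n = 3 each). FOXO1 itself was at 117 ± 14.5 CPM in the wild-type and 43.2 ± 4.06 CPM in the mutant background, and the part of this level in the result was not tested. SMAD3 was lower with FOXO1 than without, at 969 against 2768 CPM in the wild-type and 392 against 843 CPM in the mutant background. The part of SMAD3 in the result was not tested either. None of the D cyclin, kinase, inhibitor or RB1 genes met this test in edgeR, with 4 of 9 at an unadjusted p under 0.05 and 1 called by DESeq2. Over all 13868 tested genes edgeR called 1.38%, 1736 had an unadjusted p under 0.05, and DESeq2 called 365.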

How the results depend on the processing

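Of the counts of called genes, those for FOXL2C134W and FOXL2C134W + FOXO1 against Vectors, for the addition of FOXO1 to either form and for any difference stayed within 1.5 times under every alternative run. FOXL2WT against Vectors ranged from 1 to 2 called genes when a library was left out, CDK4 being lost without Vectors replicate A, FOXL2WT replicate A or FOXL2WT replicate B, and was 1 when CCND1 and CDK4 were counted from 3′ UTR transcripts. FOXL2WT + FOXO1 against Vectors went from 0 to 2 in DESeq2 with transcript length offsets (CDK4 and CDKN2C) and to 1 with either the gene length or the GC content offset (CDK4). FOXL2C134W against FOXL2WT went from 3 to 5 with the GC content offset (adding CCND3 and CDK4) and to 5 with 3′ UTR transcripts (adding CCND1 and CDK4). FOXL2C134W + FOXO1 against FOXL2WT + FOXO1 went from 0 to 1, CDKN1B in each case, in DESeq2, with either other count filter and with either offset. The interaction went from 0 to 1, CCND1, in DESeq2, and ranged from 0 to 1 when a library was left out, the call appearing without FOXL2C134W + FOXO1 replicate B. The mean CCND1 share of the D cyclin TPM went from 99.6% to 55.2% with protein coding transcripts only. The causes were not tested.

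Of the log2 fold changes of single genes under the alternatives, 1155 kept direction and side of the threshold, 29 passed it newly, 18 no longer passed and 73 changed sign. Of the 73, CDK4 in FOXL2WT against Vectors was called before the change of sign, and CCND1 in FOXL2C134W + FOXO1 against Vectors after it, both with 3′ UTR transcripts. The cause was not tested for any of them. With 3′ UTR transcripts, CCND1 turned to 0.099 for FOXL2WT against Vectors, 0.163 for FOXL2C134W + FOXO1 against Vectors, 0.101 for FOXL2C134W + FOXO1 against FOXL2WT + FOXO1 and -0.037 for FOXL2WT + FOXO1 against FOXL2WT. CDK4 turned to 0.174 for FOXL2WT against Vectors, 0.134 for FOXL2WT + FOXO1 against Vectors, -0.04 for FOXL2WT + FOXO1 against FOXL2WT and -0.043 for FOXL2C134W + FOXO1 against FOXL2C134W. Under DESeq2 with transcript length offsets, CDKN1B turned to 0.003 for FOXL2WT against Vectors, 0.043 for FOXL2WT + FOXO1 against Vectors, 0.099 for FOXL2C134W + FOXO1 against FOXL2C134W and 0.059 for the interaction. RB1 turned to 0.025 for FOXL2WT against Vectors and 0.041 for FOXL2C134W against Vectors. CCND1 turned to -0.011 for FOXL2WT + FOXO1 against Vectors. CDKN1C turned to -0.092 for FOXL2WT + FOXO1 against Vectors. CCND3 turned to 0.059 for FOXL2WT + FOXO1 against FOXL2WT and -0.004 for the interaction. CDK4 turned to 0.022 for the interaction. CDK6 turned to -0.041 for the interaction. Under the gene length offset, CCND1 turned to -0.037 for FOXL2WT + FOXO1 against Vectors, 0.032 for FOXL2C134W + FOXO1 against Vectors and 0.069 for FOXL2C134W + FOXO1 against FOXL2WT + FOXO1. CDK6 turned to 0.022 for FOXL2WT + FOXO1 against Vectors, -0.084 for FOXL2C134W against FOXL2WT and 0.037 for FOXL2C134W + FOXO1 against FOXL2C134W. RB1 turned to -0.006 for FOXL2C134W + FOXO1 against Vectors and -0.063 for FOXL2C134W against FOXL2WT. CDK4 turned to 0.00081 for FOXL2C134W against FOXL2WT, 0.003 for FOXL2C134W + FOXO1 against FOXL2WT + FOXO1 and 0.002 for the interaction. CDKN2C turned to 0.018 for FOXL2C134W against FOXL2WT. Under the GC content offset, RB1 turned to 0.00057 for FOXL2WT against Vectors and 0.005 for FOXL2C134W against Vectors. CCND1 turned to -0.016 for FOXL2WT + FOXO1 against Vectors and 0.009 for FOXL2C134W + FOXO1 against FOXL2WT + FOXO1. CDKN1C turned to -0.00015 for FOXL2WT + FOXO1 against Vectors. CDK4 turned to 0.03 for the interaction. CDK6 turned to -0.025 for the interaction. Under the filter of 10 counts in every library, CDK6 turned to -0.003 for the interaction. When a library was left out, the values that changed sign had these ranges. CDK6 ranged from -0.021 to 0.131 for FOXL2WT against Vectors, -0.045 to 0.027 for FOXL2WT + FOXO1 against Vectors, -0.151 to 0.004 for FOXL2WT + FOXO1 against FOXL2WT, -0.129 to 0.006 for FOXL2C134W + FOXO1 against FOXL2C134W and -0.076 to 0.081 for the interaction. RB1 ranged from -0.062 to 0.003 for FOXL2WT against Vectors, -0.058 to 0.014 for FOXL2C134W against Vectors, -0.018 to 0.047 for FOXL2C134W + FOXO1 against Vectors and -0.012 to 0.035 for FOXL2C134W against FOXL2WT. CDKN1C ranged from -0.037 to 0.111 for FOXL2WT + FOXO1 against Vectors. CCND1 ranged from -0.051 to 0.006 for FOXL2C134W + FOXO1 against Vectors. CDKN2C ranged from -0.088 to 0.055 for FOXL2C134W against FOXL2WT, -0.071 to 0.01 for FOXL2C134W + FOXO1 against FOXL2WT + FOXO1 and -0.09 to 0.053 for the interaction. CCND3 ranged from -0.062 to 0.017 for FOXL2WT + FOXO1 against FOXL2WT. CDKN1B ranged from -0.014 to 0.031 for FOXL2WT + FOXO1 against FOXL2WT, -0.042 to 0.019 for FOXL2C134W + FOXO1 against FOXL2C134W and -0.055 to 0.015 for the interaction.

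With a replicate block the counts were 2, 5, 0 and 4 against Vectors in the order FOXL2WT, FOXL2C134W, FOXL2WT + FOXO1 and FOXL2C134W + FOXO1, and 3 for FOXL2C134W against FOXL2WT, and the block changed no call of these genes. DESeq2 gave no adjusted p for CDKN1C in several comparisons. CDKN1C, at 22 to 52 counts per library, and CCND2 are limited by depth.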
